A study of Mus musculus with 12 samples.

Results

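The transcripts described here are those of 9 Toll-like receptor genes, Tlr1, Tlr2, Tlr4, Tlr5, Tlr6, Tlr7, Tlr8, Tlr9 and Tlr13, and of Cd14, the lipopolysaccharide-binding co-receptor. Members were taken by gene symbol from the array's probe table, and 9 of the 10 had a row that carried that symbol alone, out of 19937 genes with such a row in the whole series. Each of the 9 was read by 1 row, so no choice between rows was needed, and Tlr5 was not analysed here. Messenger RNA had been measured on 12 Affymetrix Mouse Gene 1.0 ST arrays, 3 for each of 4 populations sorted by flow cytometry from the bone marrow of C57BL/6 mice, for which the sources used here give no treatment and no age. The levels are log2 values after robust multi-array averaging (RMA), so a difference of 1 is a 2-fold change.

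LSK cells, the earliest population, were sorted as negative for the lineage antigens B220, Ter119, CD3, Gr-1 and CD11b and positive for Sca1 and cKit. Promyelocytes, myelocytes and granulocytes were sorted from cells negative for lymphoid antigens, B220 and CD3 among them, and for Sca1 by their Gr-1, cKit, CD34 and Fc gamma receptor (CD16 and CD32) staining. No antibody against a monocyte, basophil or eosinophil antigen is listed for the last 3 gates, so such cells were not removed by a lineage stain. The arrays of a population are labelled as biological replicates, without saying whether they came from separate mice or pools, and p-values measure the spread between them. Fewer cells of a type and less RNA per cell cannot be told apart in bulk RNA.

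Toll-like receptors are membrane proteins that recognise molecules of microbes, and they work as pairs. At the cell surface Tlr2 pairs with Tlr1 or Tlr6 to bind bacterial lipoproteins, Tlr4 binds lipopolysaccharide together with Ly96 after Cd14 has handed it over, and Tlr5 binds flagellin. Tlr7, Tlr8, Tlr9 and Tlr13 lie in endosomes. There Tlr7 responds to single-stranded RNA, Tlr9 to unmethylated CpG DNA and Tlr13, a receptor of mice that humans lack, to bacterial ribosomal RNA. Most of them signal through the adaptor Myd88 to Irak kinases and NF-kB, and neutrophils, the cells that this lineage ends in, carry several of them.

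The stage markers followed the labels. The mean of 6 promyelocyte markers, among them primary granule proteases, was highest on the promyelocyte arrays (10.95 to 11.45), the mean of 6 myelocyte markers, among them secondary granule proteins, on the myelocyte arrays (12.46 to 12.48) and that of 4 granulocyte markers on the granulocyte arrays (11.73 to 11.87). The mean of 6 LSK markers was 9.36 to 9.92 on LSK arrays and no more than 7.96 on any other array. Some arrays stood apart from others of their stage. The mean of 6 basophil and mast cell markers was 10.99, 9.85 and 8.62 on myelocyte arrays 1, 2 and 3, against 5.65 to 5.93 on granulocyte arrays. The mean of 8 conventional dendritic cell markers, which include MHC class II genes, was 6.72, 6.35 and 5.40 on myelocyte arrays 1, 2 and 3, and that of 11 monocyte and macrophage markers was 7.41, 6.91 and 6.06. Of the 8 dendritic cell markers 6 were lowest on array 3, among them H2-Ab1 at 10.52, 9.45 and 6.89. Zbtb46 ran the other way at 4.84, 4.99 and 5.15, Xcr1 was dim in all 4 stages, and Flt3 is also an LSK marker. The mean of 6 eosinophil markers was 8.39, 5.60 and 8.79 on promyelocyte arrays 1, 2 and 3, and the promyelocyte markers averaged 7.75 on LSK array 3, against 9.81 and 10.28 on LSK arrays 1 and 2. Differences that use myelocytes were also computed with myelocyte array 3 alone, chosen after the data were seen and with its spread taken from the other stages. These values are given for the receptors with a called step and for some, not all, of the other named genes whose call changed. Plasmacytoid dendritic cell markers did not exceed a mean of 5.64, and T and NK cell markers one of 4.57, on any promyelocyte, myelocyte or granulocyte array.

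Of the 9 receptors measured, 8 had levels that varied over the 4 stages (moderated F, adjusted p under 0.05), as did 54% of all genes tested. The exception was Tlr9. Between 2 stages, a gene was called where it differed by at least 2-fold with a p, adjusted by the Benjamini-Hochberg method, under 0.05 in 1 limma fit over 12 arrays. The dim level, 4.51, is the 95th percentile of the means of 1190 olfactory and vomeronasal receptor genes, which these cells are taken not to express. Where a stage mean lay at or under it, a difference is one from dim signal and no fold is given.

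**Figure D1:**
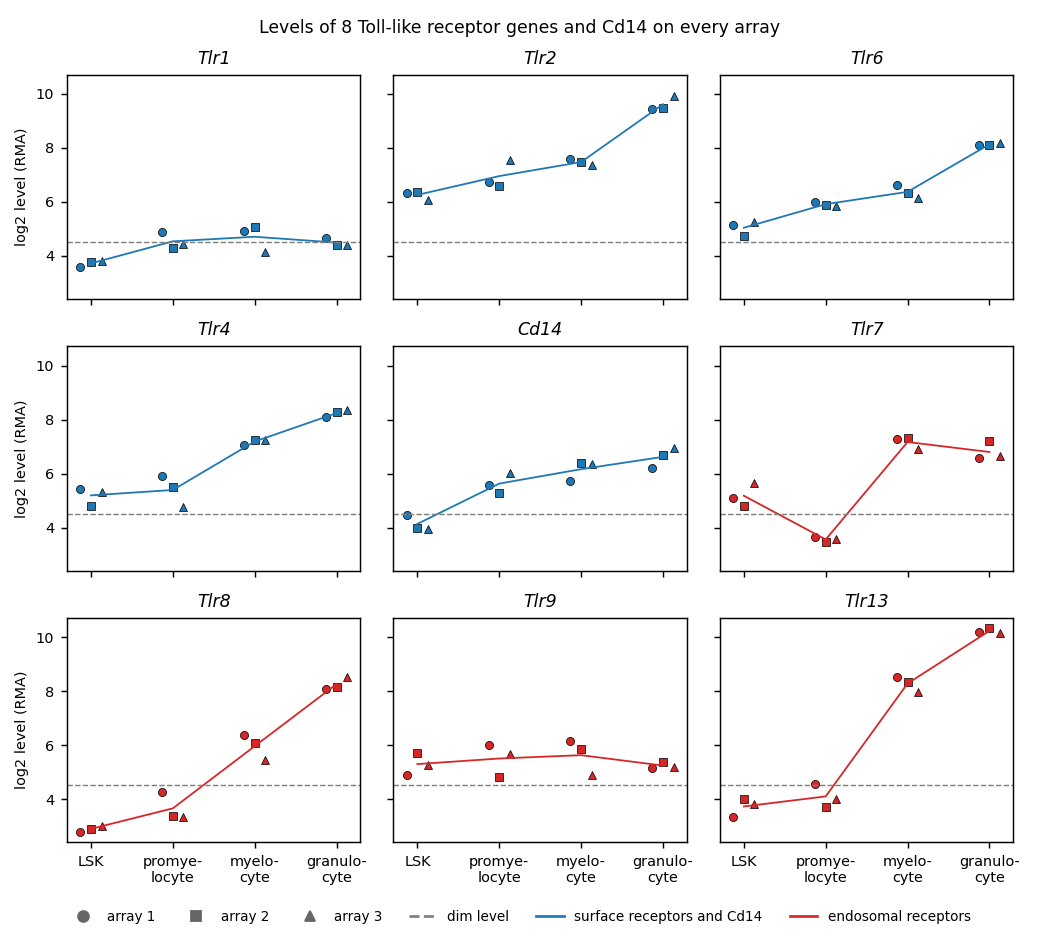
Log2 RMA level (y axis) of Tlr1, Tlr2, Tlr6, Tlr4, Cd14, Tlr7, Tlr8, Tlr9 and Tlr13 on the 3 arrays of LSK cells, promyelocytes, myelocytes and granulocytes (x axis), with a line through the stage means and a dashed line at the dim level of 4.51. Tlr13 averaged 3.72, 4.10, 8.28 and 10.23 over the 4 stages in that order, while Tlr9 stayed between 5.24 and 5.63 and Tlr7 was lowest in promyelocytes at 3.56.

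Among the surface receptors, the transcripts of Tlr2, Tlr4 and Tlr6 were highest in granulocytes, and that of Tlr1 was not. Tlr2, the shared partner of the lipoprotein receptors, had 9.45, 9.49 and 9.91 on the granulocyte arrays, against 6.74, 6.58 and 7.55 on the promyelocyte arrays. On the myelocyte arrays it had 7.60, 7.48 and 7.35, and on the LSK arrays 6.33, 6.37 and 6.08. All 3 granulocyte arrays lay above every other array, whereas the promyelocyte and myelocyte arrays overlapped. Tlr2 rose by 2.66 ± 0.22 in granulocytes relative to promyelocytes, 6.32-fold (SE, n = 3 each, limma adjusted p = 3.86e-08), and most of this lay in the last step, where it rose by 2.14 ± 0.22 relative to myelocytes (adjusted p = 4.5e-06; 2.26 with myelocyte array 3 alone). Granulocytes exceeded LSK cells by 3.36, or 10.2-fold.

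Promyelocyte array 3, which gave the high Tlr2 value of 7.55, was also the highest promyelocyte array for several inducible genes of the pathway. The inhibitor Nfkbia was at 8.45, 8.5 and 9.68 on promyelocyte arrays 1, 2 and 3, and Tnfaip3, which encodes the ubiquitin-editing enzyme A20, was at 6.94, 6.84 and 8.25. The interferon-induced chemokine Cxcl10 was at 4.98, 5.14 and 7.56 on these arrays. Of 14 induced genes of the pathway 9 were highest on promyelocyte array 3, as were 4 of 8 negative regulators. This did not hold for the pathway as a whole: of 63 measured genes 23 were highest on array 3 and 27 on array 1. Of the 9 receptors 2 were highest on array 3 and 7 on array 1. These counts include genes at dim signal, whose order carries no meaning. Among them are Nos2 and Ifnb1 of the induced genes highest on array 3, and Tlr7, Tlr8 and Tlr13 of the receptors highest on array 1. The share of all genes highest on each array was not computed. Nfkbia, Tnfaip3 and Cxcl10 were named after their values were seen, and the part of that array in the Tlr2 level of promyelocytes was not tested.

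Tlr6, which pairs with Tlr2, had 8.11, 8.10 and 8.19 on granulocyte arrays, against 6.00, 5.90 and 5.85 on promyelocyte arrays. It had 6.63, 6.33 and 6.16 on myelocyte arrays and 5.14, 4.75 and 5.24 on LSK arrays. No 2 stages overlapped, and the 4 stage means of 5.04, 5.92, 6.38 and 8.13 ran in the order of maturation. The rise in granulocytes was 2.22 ± 0.16 relative to promyelocytes (4.65-fold, adjusted p = 9.02e-09) and 1.76 ± 0.16 relative to myelocytes (adjusted p = 1.73e-06), or 1.97 with myelocyte array 3 alone. The differences of the earlier steps passed the p threshold but were under 2-fold, at 0.87 ± 0.16 for promyelocytes minus LSK cells (adjusted p = 0.00157) and 0.46 ± 0.16 for myelocytes minus promyelocytes (adjusted p = 0.0324).

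Tlr1, the other partner of Tlr2, remained close to the dim level. It had 4.66, 4.42 and 4.40 on granulocyte arrays and 4.94, 5.06 and 4.13 on myelocyte arrays. On promyelocyte arrays it had 4.89, 4.30 and 4.43, and on LSK arrays 3.59, 3.76 and 3.82. The LSK arrays lay below all others and the later 3 stages overlapped. Tlr1 differed among the stages by the F test (adjusted p = 0.00461) and was called in none of the 6 comparisons, the closest being myelocytes minus LSK cells at 0.99 ± 0.22 (adjusted p = 0.0017), a difference from dim signal that is 1.01, 1.04 or 1.28 without LSK array 2, LSK array 3 or myelocyte array 3 and is then called. Tlr1 and Tlr6 lie next to each other on chromosome 5 and are close paralogs. Granulocytes minus promyelocytes was -0.04 (95% interval -0.51 to 0.42) for Tlr1 and 2.22 (1.88 to 2.55) for Tlr6. Whether any probe reads both transcripts was not tested.

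Tlr4, the lipopolysaccharide receptor, was higher already in myelocytes. It had 8.10, 8.26 and 8.35 on granulocyte arrays and 7.07, 7.25 and 7.23 on myelocyte arrays. It had 5.91, 5.49 and 4.77 on promyelocyte arrays, which overlapped the LSK arrays at 5.44, 4.80 and 5.33. Tlr4 thus fell into 2 levels before the last step, with both early stages below both late ones. It rose by 1.80 ± 0.24 in myelocytes relative to promyelocytes (3.47-fold, adjusted p = 1.57e-05, or 1.85 with myelocyte array 3 alone) and by 1.05 ± 0.24 in granulocytes relative to myelocytes (2.08-fold, adjusted p = 0.00389). The second of these lies at the 2-fold limit and was not called without myelocyte array 1 or without granulocyte array 3 (1.00 each), nor with myelocyte array 3 alone (1.00, adjusted p = 0.0931). Granulocytes minus promyelocytes was 2.85 ± 0.24, or 7.21-fold.

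Cd14, which is anchored to the membrane by a lipid and passes lipopolysaccharide to Tlr4, was called at the first step. It had 5.56, 5.29 and 6.03 on promyelocyte arrays, against 4.48, 3.98 and 3.94 on LSK arrays, of which array 3 had the low promyelocyte marker mean. It had 5.72, 6.39 and 6.37 on myelocyte arrays and 6.19, 6.70 and 6.96 on granulocyte arrays. The LSK arrays were all under the dim level and below every other array, and neighbouring later stages overlapped. Cd14 rose by 1.49 ± 0.25 from that dim signal in promyelocytes relative to LSK cells (adjusted p = 0.000775) and by 2.48 ± 0.25 in granulocytes relative to LSK cells (adjusted p = 3.73e-07). Granulocytes minus promyelocytes was 0.99 ± 0.25, 1.99-fold (adjusted p = 0.0031), just under the fold required, and was called without promyelocyte array 3 (1.19), the array described above, or without granulocyte array 1 (1.21).

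The endosomal receptors covered a wider range. Tlr13 had 10.19, 10.34 and 10.16 on granulocyte arrays, against 4.57, 3.72 and 4.01 on promyelocyte arrays. It had 8.52, 8.34 and 7.98 on myelocyte arrays, against 3.34, 4.01 and 3.83 on LSK arrays. Both early stages lay at dim signal and both late stages far above it, with no overlap between granulocytes and myelocytes. Tlr13 rose by 4.18 ± 0.22 from dim signal in myelocytes relative to promyelocytes (adjusted p = 9.44e-10) and by a further 1.95 ± 0.22 in granulocytes relative to myelocytes (3.86-fold, adjusted p = 1.14e-05). In granulocytes relative to promyelocytes it rose by 6.13 ± 0.22 from dim signal (adjusted p = 6.35e-12). With myelocyte array 3 alone the 2 steps were 3.88 (adjusted p = 7.84e-07) and 2.25 (adjusted p = 0.000234).

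Tlr8 was dim in the early stages too and called higher at both later steps. It had 8.09, 8.15 and 8.53 on granulocyte arrays and 6.37, 6.08 and 5.43 on myelocyte arrays. It had 4.28, 3.37 and 3.32 on promyelocyte arrays and 2.78, 2.89 and 3.02 on LSK arrays. No 2 stages overlapped, although the first 2 were both under the dim level. Tlr8 rose by 2.31 ± 0.26 from dim signal in myelocytes relative to promyelocytes (adjusted p = 2.95e-06) and by 2.29 ± 0.26 in granulocytes relative to myelocytes (4.91-fold, adjusted p = 1.1e-05). Its myelocyte arrays ran in the same order as the monocyte, dendritic and basophil marker means, as did those of Tlr2, Tlr6, Tlr9 and Tlr13. Those of Tlr4 and Cd14 did not and were lowest on array 1, where these marker means were highest. Tlr1 and Tlr7 were highest on myelocyte array 2. Of the 9 receptors 7 were lowest on myelocyte array 3, as were 37 of 63 other measured genes of the pathway. The 63 include genes at dim signal, and the share of all genes lowest on that array was not computed. With myelocyte array 3 alone the same 2 differences of Tlr8 were 1.77 and 2.83.

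Tlr7, the neighbour of Tlr8 on chromosome X, was the only receptor called lower at any step. It had 3.65, 3.45 and 3.57 on promyelocyte arrays, against 5.08, 4.81 and 5.64 on LSK arrays. It had 7.27, 7.33 and 6.90 on myelocyte arrays and 6.56, 7.2 and 6.63 on granulocyte arrays, which overlapped. The promyelocyte arrays were thus the lowest of all 12 and the only ones under the dim level. Tlr7 fell by 1.62 ± 0.21 in promyelocytes relative to LSK cells (adjusted p = 0.000139), rose by 3.61 ± 0.21 from dim signal in myelocytes relative to promyelocytes (adjusted p = 3.47e-09) and did not pass between granulocytes and myelocytes (-0.37, 95% interval -0.83 to 0.09). With myelocyte array 3 alone the rise in myelocytes was 3.35 (adjusted p = 2.86e-06). Granulocytes exceeded LSK cells by 1.62 ± 0.21, or 3.07-fold (adjusted p = 9.34e-06). Plasmacytoid dendritic cells carry much Tlr7, and the mean of 6 of their markers was 5.39 to 5.64 on promyelocyte arrays, against 5.94 to 6.08 on LSK arrays. The same mean was 5.25 to 5.31 on myelocyte arrays and 5.22 to 5.26 on granulocyte arrays, where Tlr7 was higher. All 4 gates excluded cells with B220, which these cells bear. Their part in the Tlr7 level was not tested.

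Tlr9 did not differ among the stages (F test adjusted p = 0.651). It had 5.16, 5.38 and 5.18 on granulocyte arrays and 6.16, 5.84 and 4.88 on myelocyte arrays. It had 6.02, 4.81 and 5.68 on promyelocyte arrays and 4.91, 5.72 and 5.26 on LSK arrays. Every pair of stages overlapped, and the spread within promyelocytes and within myelocytes exceeded the 0.39 between the highest and lowest stage means. Granulocytes minus promyelocytes was -0.27 with a 95% interval of -0.95 to 0.42, so a difference of up to about 2-fold in the lower direction lies within the interval. The sign of 5 of its 6 differences turned when 1 array was left out or only myelocyte array 3 was kept. The genes most like Tlr9 over the 12 arrays were Gpr183 (r = 0.799), Cx3cr1 (r = 0.799) and Pld4 (r = 0.712). Cx3cr1, a chemokine receptor of monocytes, was at 7.64, 7.33 and 5.95 on myelocyte arrays 1, 2 and 3, in the order of Tlr9, and at 7.37, 6.38 and 7.17 on the promyelocyte arrays, where array 2 was the lowest for both. The eosinophil marker mean was also lowest on promyelocyte array 2 (8.39, 5.60 and 8.79) but, unlike Tlr9, was highest on array 3. The basophil and mast cell marker mean ran in the order of Tlr9 on the promyelocyte arrays. It was 9.51 on array 1 and 8.11 on array 3, and was lowest on array 2. The monocyte and macrophage marker mean was instead lowest on promyelocyte array 3. The part of these cells in the Tlr9 level was not tested.

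**Figure D2:**
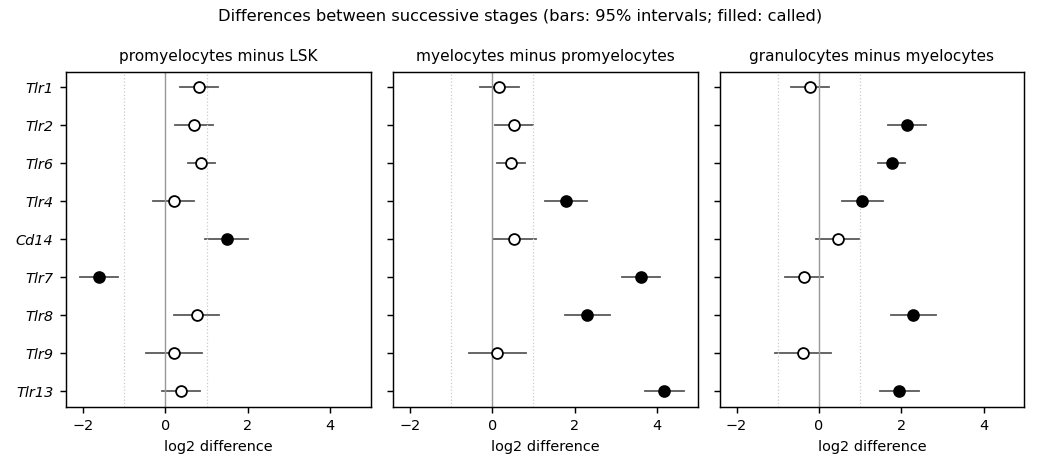
Log2 difference (x axis) of each receptor gene (y axis) in promyelocytes minus LSK cells, myelocytes minus promyelocytes and granulocytes minus myelocytes, with 95% intervals from limma (n = 3 arrays a stage). Filled points were called at an adjusted p under 0.05 and at least 2-fold (dotted lines). Cd14 and Tlr7 are called in the first step, Tlr4, Tlr7, Tlr8 and Tlr13 in the second, and Tlr2, Tlr6, Tlr4, Tlr8 and Tlr13 in the third.

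Counted over the 9 measured receptors, the steps were unequal. In promyelocytes relative to LSK cells 1 was called higher (Cd14) and 1 lower (Tlr7), where 1.61% of all 19937 genes were called higher and 2.75% lower. In myelocytes relative to promyelocytes 4 of 9 were called higher (Tlr4, Tlr7, Tlr8 and Tlr13) and 0 lower, against 7.61% and 9.87% of all genes. In granulocytes relative to myelocytes 5 of 9 were called higher (Tlr2, Tlr4, Tlr6, Tlr8 and Tlr13) and 0 lower, against 2.35% and 5.96%. At an unadjusted p under 0.05 by limma the count of receptors lower was 0 in both of these steps too. Tlr4, Tlr8 and Tlr13 were called in both, Tlr7 in the middle step without the last, and Tlr2 and Tlr6 in the last without the middle; the differences between the steps were not tested.

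Across wider intervals most receptors were higher. In granulocytes relative to promyelocytes 6 of 9 were called higher and 0 lower, where 10.1% of all genes were called higher and 16.3% lower. The median difference of the 9 was 2.66, against 0.13 over all genes. In granulocytes relative to LSK cells 7 of 9 were called higher (9.59% of all genes) and 0 lower (16.5%), with a median of 3.05 against 0.17. In myelocytes relative to LSK cells 7 of 9 were called higher (7.74%) and 0 lower (10.8%), with a median of 1.99 against 0.05. In all 3 comparisons 0 receptors were lower at an unadjusted p under 0.05 as well. These comparisons share their arrays with one another and with the steps above. With myelocyte array 3 alone 4 receptors were called in myelocytes relative to promyelocytes, 4 in granulocytes relative to myelocytes and 7 in myelocytes relative to LSK cells.

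Over the 12 arrays, which share their 4 stages, Tlr8 correlated with Tlr13 at 0.98, Tlr4 with Tlr8 and with Tlr13 at 0.97, and Tlr2 with Tlr6 at 0.97. Tlr9 correlated with each of Tlr2, Tlr4, Tlr6, Tlr7, Tlr8, Tlr13 and Cd14 at -0.09 to 0.04 and with Tlr1 at 0.59. Among 6439 candidate genes, the one most like Tlr13 was Rin2 (r = 0.998), a regulator of Rab5 GTPases, which had stage means of 5.09, 5.22, 8.21 and 9.39 from LSK cells to granulocytes. Tlr2 was most like Nlrp3 (r = 0.98), the inflammasome sensor, with stage means of 4.67, 5.75, 5.96 and 9.22, followed by Xylt1 (0.979) and Rnf149 (0.976). Tlr8 was most like Dhrs9 (0.992) and Trpm2 (0.991), the calcium channel opened by ADP-ribose. Tlr7 was most like Plxnc1 (0.983), the receptor of semaphorin 7A, whose means of 8.74, 7.46, 10.22 and 10.04 also had their lowest point in promyelocytes. Tlr4 was most like Far1 (0.992), Tlr6 like Tgfbi (0.984), Cd14 like App (0.949) and Tlr1 like Ly6i (0.909).

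Promoter sequences, from 250 bases before to 50 bases after a start, were taken from RefSeq (GRCm38.p6) and were matched for 7 of the 10 genes. Shown are Tlr2 and Tlr6, which moved together and were called in the last step, Tlr8 and Tlr13, which moved together from dim signal, and Tlr9, which did not differ. Capitals mark matches on either strand to any of 5 motifs: AGGAAGT (ETS and PU.1), TTGCNNAA (C/EBP), TGANTCA (AP-1), GGGNNNNNCC (NF-kB) and the interferon-type motif (GAAA, any 2 bases, GAAA). Of 32841 promoters of this length, 9.4%, 10.8%, 7.8%, 50.8% and 3.4% held them in that order.
Tlr2, chr3:83841559-83841858, minus strand: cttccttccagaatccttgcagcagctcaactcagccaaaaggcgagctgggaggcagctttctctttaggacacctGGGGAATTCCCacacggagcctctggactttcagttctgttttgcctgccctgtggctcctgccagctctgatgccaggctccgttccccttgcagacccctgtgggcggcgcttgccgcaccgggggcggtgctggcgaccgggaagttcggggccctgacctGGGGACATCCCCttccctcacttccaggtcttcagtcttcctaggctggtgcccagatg
Tlr6 (the start of lower coordinate of 2), chr5:64959117-64959416, minus strand: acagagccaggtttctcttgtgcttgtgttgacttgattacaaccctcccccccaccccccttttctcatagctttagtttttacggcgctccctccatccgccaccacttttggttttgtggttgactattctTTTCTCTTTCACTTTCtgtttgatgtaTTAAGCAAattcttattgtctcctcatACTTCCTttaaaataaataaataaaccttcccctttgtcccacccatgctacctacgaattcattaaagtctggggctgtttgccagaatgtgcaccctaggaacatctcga
Tlr8, chrX:167264280-167264579, minus strand: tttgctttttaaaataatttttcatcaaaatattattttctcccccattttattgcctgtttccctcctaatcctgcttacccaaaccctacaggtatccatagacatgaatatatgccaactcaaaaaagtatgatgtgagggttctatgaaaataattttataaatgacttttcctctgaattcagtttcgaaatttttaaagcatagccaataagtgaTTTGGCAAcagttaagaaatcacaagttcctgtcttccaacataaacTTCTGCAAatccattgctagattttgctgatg
Tlr13, chrX:106143025-106143324, plus strand: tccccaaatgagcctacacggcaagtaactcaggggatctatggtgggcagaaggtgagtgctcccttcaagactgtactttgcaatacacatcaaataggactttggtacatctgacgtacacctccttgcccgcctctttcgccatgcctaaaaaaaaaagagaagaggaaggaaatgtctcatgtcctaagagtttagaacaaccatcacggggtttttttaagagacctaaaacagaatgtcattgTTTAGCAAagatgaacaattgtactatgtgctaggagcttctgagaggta
Tlr9, chr9:106222348-106222647, plus strand: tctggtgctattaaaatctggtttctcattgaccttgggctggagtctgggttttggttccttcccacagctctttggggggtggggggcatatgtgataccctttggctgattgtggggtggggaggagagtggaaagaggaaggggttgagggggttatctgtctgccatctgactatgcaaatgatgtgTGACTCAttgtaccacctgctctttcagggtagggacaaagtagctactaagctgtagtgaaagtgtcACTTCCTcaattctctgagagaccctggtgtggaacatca
The Tlr8 promoter held C/EBP matches at -29 to -22 and at 19 to 26, and that of Tlr13 held 1 at 1 to 8, counting from 1 at the first base after the start. Tlr2 held overlapping NF-kB matches in 2 stretches, at -173 to -163 and -9 to 3. Tlr6 held 2 overlapping interferon-type matches at -116 to -101, beside a C/EBP match at -89 to -82 and an ETS match at -62 to -56. The second start of Tlr6, not shown, held an NF-kB match at -99 to -90 and an ETS match at 16 to 22. Tlr9 held an AP-1 match at -58 to -52 and an ETS match at 11 to 17. A match says only that these letters are present.

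The other genes of the pathway were listed by role, and 63 of 69 were measured. In promyelocytes relative to LSK cells 3 were called higher and 4 lower, against 1.61% and 2.75% of all genes. In myelocytes relative to promyelocytes 17 were called higher and 2 lower, against 7.61% and 9.87%, and in granulocytes relative to myelocytes 7 higher and 6 lower, against 2.35% and 5.96%. In granulocytes relative to promyelocytes 17 were called higher and 7 lower, against 10.1% and 16.3% of all genes, with a median difference of 0.44 against 0.13 over all genes. In granulocytes relative to LSK cells 17 were called higher and 6 lower (9.59% and 16.5% of all genes), and in myelocytes relative to LSK cells 16 higher and 2 lower (7.74% and 10.8%). The counts by role below, all for granulocytes relative to promyelocytes, stand against the same 10.1% higher and 16.3% lower, and with few genes in a list a count of 1 or 2 is near these shares. Both other Toll-like receptors measured were at or near dim signal: Tlr3, which recognises double-stranded RNA, was under it in all 4 stages (means of 3.36 to 4.25), and Tlr12 had means of 4.43 to 4.65.

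**Figure D3:**
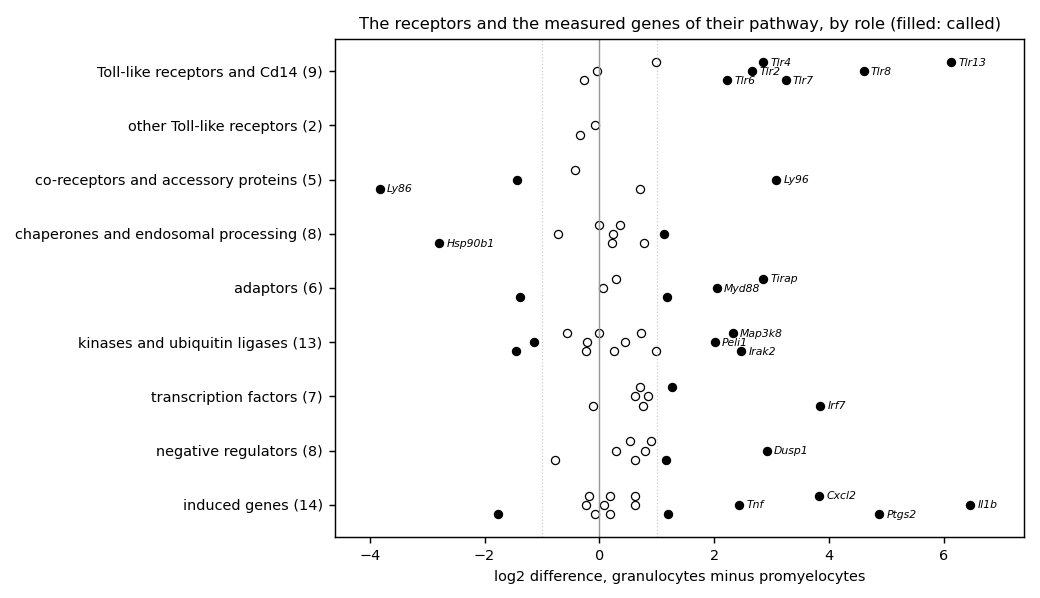
Log2 difference in granulocytes minus promyelocytes (x axis) of the 9 receptor genes and of 63 other measured genes of the pathway, in rows by role with the number measured in brackets. Filled points were called, and called genes beyond 1.9 in either direction are named. Tlr13 lies at 6.13 and Il1b at 6.46, both from dim signal in promyelocytes, and Ly86 is the lowest at -3.83.

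The accessory proteins Ly96 and Ly86 moved in opposite directions in granulocytes relative to promyelocytes, as did the receptors they join, Tlr4 and Cd180. Ly96, or MD-2, which holds the lipid within Tlr4, had 8.17, 8.25 and 7.89 on granulocyte arrays, against 5.26, 5.02 and 4.79 on promyelocyte arrays. Its stage means of 5.08, 5.02, 6.09 and 8.10 rose over the same steps as those of Tlr4. Myelocytes overlapped neither neighbouring stage. Ly96, unlike Tlr4, took its larger step between myelocytes and granulocytes. It rose by 3.08 ± 0.23 in granulocytes relative to promyelocytes (8.45-fold, adjusted p = 1.66e-08) and by 2.01 ± 0.23 relative to myelocytes (adjusted p = 1.31e-05). Its difference of 1.07 in myelocytes relative to promyelocytes was under 2-fold without promyelocyte array 3 (0.95) or myelocyte array 1 (0.96), and did not pass with myelocyte array 3 alone (0.90, adjusted p = 0.0723). Ly86, or MD-1, the partner of the Tlr4 homologue Cd180, had 5.21, 6.45 and 5.74 on granulocyte arrays, against 10.14, 9.48 and 9.25 on promyelocyte arrays. It rose by 2.03 ± 0.41 in promyelocytes relative to LSK cells (4.09-fold, adjusted p = 0.00373) and fell by 3.83 ± 0.41 in granulocytes relative to promyelocytes (adjusted p = 9.92e-07). Cd180 itself fell by 1.43 ± 0.33 in granulocytes relative to promyelocytes (adjusted p = 0.00201).

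Both Ly86 and Cd180 were unequal among the myelocyte arrays, where Ly86 was at 8.52, 7.76 and 6.83 and Cd180 at 7.08, 6.80 and 5.37. With myelocyte array 3 alone Cd180 was called lower already in myelocytes relative to promyelocytes (-1.63, adjusted p = 0.000796), and the fall of Ly86 in granulocytes relative to myelocytes did not pass (-1.03, adjusted p = 0.247). Monocytes and B cells carry both genes, and Ly86 is itself 1 of the 11 monocyte and macrophage markers. Their part in these levels was not tested. Lbp, the plasma protein that extracts lipopolysaccharide, was highest in myelocytes, with stage means of 8.99, 10.17, 11.05 and 9.73. It fell by 1.32 ± 0.19 in granulocytes relative to myelocytes (adjusted p = 0.00011), and its difference of 1.18 in promyelocytes relative to LSK cells was under 2-fold without LSK array 3 (0.95).

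Of 8 genes for chaperones and endosomal processing, 1 was called higher and 1 lower in granulocytes relative to promyelocytes. Hsp90b1, or gp96, the chaperone that folds most Toll-like receptors, had 8.55, 8.96 and 9.05 on granulocyte arrays, against 11.71, 11.60 and 11.63 on promyelocyte arrays. All 3 granulocyte arrays lay below every promyelocyte array, and Hsp90b1 fell by 2.79 ± 0.16 (adjusted p = 8.39e-10), while 6 of the 9 receptors were called higher in the same comparison. Unc93b1, which escorts the endosomal receptors out of the endoplasmic reticulum, had 9.72, 9.66 and 9.45 on granulocyte arrays, against 7.96, 8.37 and 8.20 on LSK arrays. It rose by 1.44 ± 0.19 (2.71-fold, adjusted p = 1.15e-05), with 1.09 of this already in promyelocytes, a call that was lost without LSK array 1 (0.98) or promyelocyte array 1 (0.86). Ctsl, a cathepsin that cleaves endosomal receptors, rose by 1.12 ± 0.21 in granulocytes relative to promyelocytes (adjusted p = 0.00027) but by 0.92 without granulocyte array 3.

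Of 6 adaptors 3 were called higher and 1 lower in granulocytes relative to promyelocytes. Tirap, which brings Myd88 to Tlr2 and Tlr4, had 8.85, 9.02 and 8.85 on granulocyte arrays, against 6.22, 6.28 and 5.67 on promyelocyte arrays. On myelocyte arrays it was at 8.35, 8.60 and 8.19, so that the larger step, 2.32 ± 0.17 (5.00-fold, adjusted p = 3.46e-08), lay between promyelocytes and myelocytes. Myd88 had 9.85, 9.85 and 10.15 on granulocyte arrays, against 8.05, 7.81 and 7.87 on promyelocyte arrays, and rose by 2.04 ± 0.15 (4.12-fold, adjusted p = 8.95e-09). Pik3ap1, or BCAP, which links the receptors to phosphoinositide 3-kinase, rose by 1.17 ± 0.16 (adjusted p = 1.09e-05). Ticam2, or TRAM, the bridge from Tlr4 to the interferon branch, had 5.67, 5.97 and 6.15 on granulocyte arrays, against 7.42, 7.41 and 7.14 on promyelocyte arrays, and fell by 1.39 ± 0.16 (adjusted p = 2.44e-06). Ticam1, the adaptor it joins, had stage means of 6.18, 6.28, 6.69 and 6.56 and was called in no comparison.

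Of 13 kinases and ubiquitin ligases measured, 3 were called higher and 2 lower in granulocytes relative to promyelocytes. Irak2, a kinase of the Myd88 complex, had 8.25, 8.19 and 8.22 on granulocyte arrays, against 5.91, 5.70 and 5.63 on promyelocyte arrays (2.47 ± 0.16, 5.55-fold, adjusted p = 2.53e-09). Map3k8, the kinase that leads to ERK, rose by 2.32 ± 0.21 and Peli1, a ubiquitin ligase of this pathway, by 2.01 ± 0.18. Ikbke, a kinase that phosphorylates interferon regulatory factors, fell by 1.46 ± 0.14, nearly all of it in the last step, where granulocytes were lower than myelocytes by 1.35 ± 0.14 (adjusted p = 7.18e-06). Irak1, the kinase that Irak2 resembles, was the other gene called lower, with 7.01, 7.1 and 7.28 on granulocyte arrays, against 8.23, 8.16 and 8.4 on promyelocyte arrays (-1.14 ± 0.15, adjusted p = 7.8e-06), and is named after its values were seen. Peli1 had its lowest level in promyelocytes, with stage means of 8.39, 7.37, 8.98 and 9.38. Its fall of 1.02 at the first step was under 2-fold without LSK array 1 (-0.98), LSK array 3 (-0.99) or promyelocyte array 3 (-0.78).

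Irf7, the interferon regulatory factor that Tlr7 and Tlr9 activate, followed the stages of Tlr7 in its first steps. It had 4.81, 5.46 and 4.73 on promyelocyte arrays, against 6.75, 6.96 and 7.21 on LSK arrays. It had 7.76, 7.71 and 7.31 on myelocyte arrays and 8.55, 8.79 and 9.19 on granulocyte arrays. No 2 stages overlapped. Irf7 fell by 1.97 ± 0.22 in promyelocytes relative to LSK cells (adjusted p = 3.26e-05) and rose by 3.84 ± 0.22 in granulocytes relative to promyelocytes (14.4-fold, adjusted p = 6.74e-10). Of the 7 transcription factors measured the only other one called in this comparison was Relb, a subunit of NF-kB, which rose by 1.26 ± 0.17 (2.40-fold, adjusted p = 1.16e-05).

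Of 8 negative regulators 2 were called in granulocytes relative to promyelocytes, both higher. Irak3, or IRAK-M, which blocks the Irak complex, had 9.93, 9.84 and 10.17 on granulocyte arrays and 10.21, 10.07 and 10.22 on myelocyte arrays. It had 8.80, 8.85 and 8.82 on promyelocyte arrays and 8.41, 8.68 and 8.54 on LSK arrays, and it rose by 1.34 ± 0.13 in myelocytes relative to promyelocytes (2.54-fold, adjusted p = 9.33e-07). Dusp1, the phosphatase that switches off p38 and JNK, had 11.99, 12.22 and 12.12 on granulocyte arrays, against 8.83, 9.31 and 9.45 on promyelocyte arrays, and rose by 2.91 ± 0.35 (7.53-fold, adjusted p = 2.92e-06). Its LSK arrays were unequal at 11.34, 11.07 and 9.42, and its difference between granulocytes and LSK cells, 1.5, was 0.90 and not called without LSK array 3. Its fall of 1.41 in promyelocytes relative to LSK cells, where array 3 of each stage overlapped (9.45 and 9.42), did not pass without LSK array 1 (adjusted p = 0.0591), LSK array 2 (0.0652) or promyelocyte array 1 (0.063).

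Of 14 genes that these receptors induce, 5 were called higher and 1 lower in granulocytes relative to promyelocytes. Il1b, which encodes the cytokine interleukin 1 beta, had 10.65, 10.53 and 10.67 on granulocyte arrays, against 4.15, 4.34 and 3.98 on promyelocyte arrays. It had 6.77, 6.52 and 6.57 on myelocyte arrays and 4.70, 4.61 and 4.05 on LSK arrays, so that its last step of 3.99 ± 0.17 (15.9-fold, adjusted p = 2.11e-09) was the largest. Ptgs2, the inducible cyclooxygenase, rose by 4.87 ± 0.50 in granulocytes relative to promyelocytes (29.2-fold, adjusted p = 5.14e-07). The chemokine Cxcl2 rose by 3.82 ± 0.51 (14.2-fold, adjusted p = 1.07e-05) and Tnf by 2.43 ± 0.26 (5.40-fold, adjusted p = 1.02e-06). Tnf had reached this level in myelocytes, with 8.95, 9.21 and 9.25 on those arrays, against 9.22, 9.31 and 9.60 on granulocyte arrays. The fifth gene called higher, the chemokine Ccl3, had 10.16, 9.82 and 10.58 on granulocyte arrays, against 8.49, 8.53 and 9.95 on promyelocyte arrays (1.19 ± 0.43, adjusted p = 0.0312), was named after its values were seen, and was not called without promyelocyte array 1 or 2 or without granulocyte array 1 or 3 (0.94, 0.96, 1.21 and 1). The gene called lower was Il12a, a subunit of interleukin 12, named after its values were seen, which fell by 1.76 ± 0.15 (adjusted p = 6.23e-08) and had stage means of 7.34, 6.61, 4.37 and 4.85.

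Il6, named here after its values were seen, was called higher in myelocytes relative to promyelocytes and lower in granulocytes relative to myelocytes, with dim signal in both of the other stages. It had 2.26, 2.16 and 2.41 on granulocyte arrays, against 6.67, 5.30 and 3.57 on myelocyte arrays 1, 2 and 3, and it had 2.83, 1.9 and 2.81 on promyelocyte arrays. It rose by 2.66 ± 0.50 from dim signal in myelocytes relative to promyelocytes (adjusted p = 0.000502) and fell by 2.90 ± 0.50 to dim signal in granulocytes relative to myelocytes (adjusted p = 0.000528). With myelocyte array 3 alone, itself under the dim level, the 2 differences were 1.05 (adjusted p = 0.0209) and -1.29 (adjusted p = 0.0125). The 3 myelocyte arrays ran in the order of the basophil and mast cell, monocyte and macrophage, and conventional dendritic cell marker means. The part of those cells in the Il6 level was not tested.

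**Figure D4:**
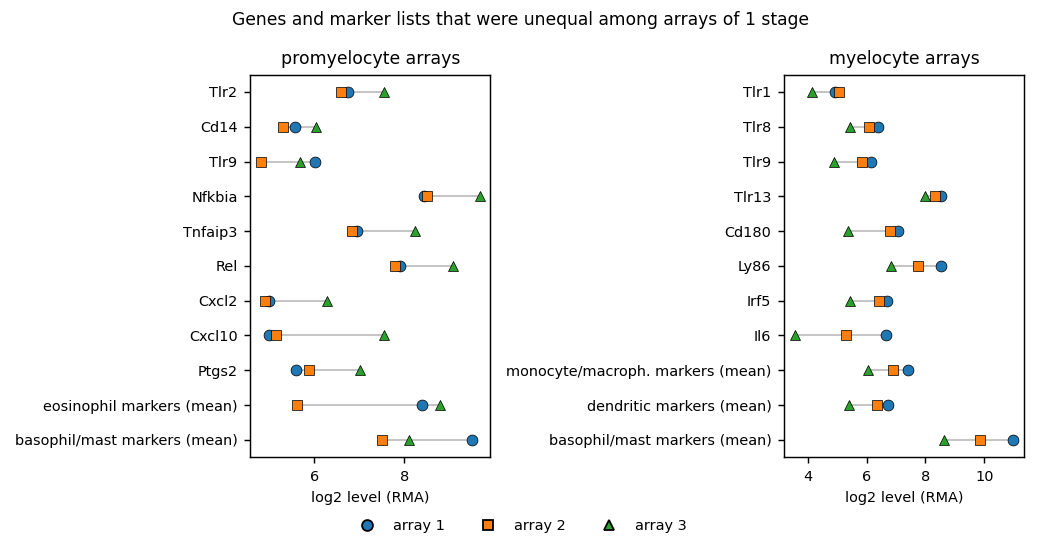
Log2 RMA level (x axis) on arrays 1, 2 and 3 of promyelocytes (left) and of myelocytes (right) for genes and marker list means (y axis) that were unequal within a stage. Promyelocyte array 3 is highest for Tlr2 (7.55), Nfkbia (9.68) and Cxcl10 (7.56), and myelocyte array 3 is lowest for Tlr1 (4.13), Tlr8 (5.43), Tlr9 (4.88) and Il6 (3.57) and for the 3 marker means.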

How the data were processed

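The authors measured RNA of 12 samples on Affymetrix Mouse Gene 1.0 ST arrays. The deposited log2 values, made by the authors with justRMA, whose version is not given, were used with no further normalization. RMA fits all arrays to 1 distribution, so levels are relative within an array (array medians 4.96 to 5.12). Rows with 1 symbol in the platform's probe table were kept (21640 of 34760), the row of highest mean was taken for each gene, and 19937 genes were tested with limma 3.58.1 in R 4.3.3, after a test on simulated data. The number of arrays, 3 a group with 8 residual degrees of freedom, limits the precision. The members and lists were chosen with earlier results of these data known. Named were all members, from each pathway list at most 4 called genes with the largest difference in granulocytes minus promyelocytes or promyelocytes minus LSK, the partners Ly96, Ly86, Cd180, Unc93b1, Myd88, Tirap and Irak3, and up to 3 genes most like each member by Pearson r. Candidates for these lay above the dim level in at least 1 stage and had stage means that spanned at least 1. Other genes are marked as chosen after their values were seen, as were the uncalled Tlr3, Tlr12 and Ticam1. Deviations of same-numbered arrays correlated at 0.184, 0.118 and 0.196 between promyelocytes and myelocytes. Over all pairs of stages the mean was 0.0958, 0.000149 and 0.081 for numbers 1, 2 and 3, with single values from -0.253 to 0.253. Differently numbered arrays of other stages reached 0.288 (LSK array 2 with promyelocyte array 3), so these values do not settle whether numbers pair arrays. The labels give no pairing, and the main fit was unpaired. Alternatives were centring, quantile normalization, row choice, a dim filter, other thresholds and spreads, the replicate block and each array left out. Motifs were searched with Python 3.11.15. Irak4, Traf3, Chuk, Nfkb1, Il1rl1 and Tlr11 were not analysed here.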

Additional observations from a re-analysis of the deposited data

How the results depend on the processing

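The count of receptors called was within 1.5 times its main value in every comparison and alternative run except 1: with no fold minimum, 5 instead of 2 were called in promyelocytes minus LSK. With the replicate block 2, 4, 5, 6, 7 and 7 receptors were called in the 6 comparisons as ordered in the report and 8 varied over the stages, as without it, and the block changed no receptor's call. Pathway counts with the block were 8, 19, 13, 24, 23 and 18, against 7, 19, 13, 24, 23 and 18 without it. Leaving out 1 array gave 5 to 10 pathway genes called in promyelocytes minus LSK, 16 to 21 in myelocytes minus promyelocytes, 12 to 17 in granulocytes minus myelocytes, 22 to 26 in granulocytes minus promyelocytes, 23 to 26 in granulocytes minus LSK and 14 to 20 in myelocytes minus LSK.

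Of the values of single receptors under the alternatives, 1263 kept their direction and their side of the threshold, 15 became called, 3 were no longer called (Tlr4 in granulocytes minus myelocytes, at 1.00 each) and 15 turned sign, all of them uncalled differences of Tlr1, Tlr4 or Tlr9. With centring on the 75th percentile, which moved the median of all genes to between 0.25 and 0.39 in comparisons of granulocytes, Tlr1 was 0.18 in granulocytes minus promyelocytes and Tlr9 was 0.15 in granulocytes minus LSK. Cd14 in granulocytes minus promyelocytes was called at 1.22 with that centring and at 1.12 with quantile normalization. With myelocyte array 3 alone Tlr1 was -0.40 in myelocytes minus promyelocytes and 0.36 in granulocytes minus myelocytes, and Tlr9 was -0.62, 0.36 and -0.42 in these 2 comparisons and in myelocytes minus LSK. With 1 array left out Tlr1 ran from 0 to 0.46 in myelocytes minus promyelocytes and from -0.16 to 0.13 in granulocytes minus promyelocytes, and Tlr4 from -0.06 to 0.51 in promyelocytes minus LSK. Tlr9 ran from -0.05 to 0.55 in promyelocytes minus LSK, from -0.22 to 0.50 in myelocytes minus promyelocytes and from -0.26 to 0.15 in granulocytes minus LSK. The cause of these shifts was not tested. With 3 arrays a stage, differences near 2-fold depend on single arrays, and levels at or under the dim level of 4.51 have no order.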
